A study of Mus musculus with 9 samples.

Results

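The transcripts of 10 genes that mark dividing progenitors and immature neurons were compared between the brains of old and young mice. Mki67, Top2a and Cdk1 belong to dividing cells, Sox11, Sox4, Dcx, Igfbpl1 and Nrep to young and growing neurons, and Dlx1 and Dlx2 to the precursors of inhibitory neurons. The genes were chosen by name and found by their Ensembl identifiers in the deposited table of 49315 gene IDs, and 9 of the 10 were among the 18492 genes with enough counts to be tested (Cdk1 was not). PolyA-selected RNA of whole brain was sequenced from wild-type male C57BL/6J mice, with 1 brain per library, to ask which transcripts differ with age. The young group held 5 mice (3 months by the labels, up to 4 months by the methods) and the old group 4 mice of 33 months, numbered 1, 3, 4 and 5, and both groups carried no further allele or treatment and fed freely. A further old mouse, replicate 2, was not analysed here.

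In the adult mouse brain, new neurons arise in the subventricular zone, from which neuroblasts migrate into the olfactory bulb, and in the dentate gyrus of the hippocampus. Stem cells there give rise to dividing progenitors and these to neuroblasts, which express Dcx, a protein that binds microtubules, and the SoxC transcription factors Sox4 and Sox11. Neuroblasts bound for the olfactory bulb also carry Dlx1 and Dlx2, homeodomain transcription factors that mature inhibitory neurons keep to some degree. These cells are few in a whole brain, other cells such as dividing glial precursors and blood cells also express genes of the cell cycle, and neurogenesis is known to decline with age.

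Each library held between 14229259 and 21150439 counts, and markers of neurons (summed CPM 6071 to 6743 per library) and astrocytes (4115 to 4501) were high in all 9, as the label brain implies. CPM are counts scaled to a common library total with TMM. Of these libraries, 4 stood apart in ways that touch the genes below. Old replicate 4 was high in genes of bone marrow and neutrophils (a list of 8 genes, summed CPM 105, against 2.82 to 8.38 in the other 8 libraries), of red cell precursors (5 genes, 39.8 against 5.25 to 13.3) and of skeletal muscle (6 genes, 45.4 against 6.27 to 12.2). The marrow and red cell lists were also higher in every other old mouse (5.16 to 8.38 and 9.01 to 13.3) than in any young mouse (2.82 to 3.64 and 5.25 to 7.65). Leaving out old replicate 4 thus does not remove this difference between the ages. Every gene of these 3 lists, which were written after the values had been seen, was highest in that library. Old replicate 5 and young replicate 2 were high in markers of olfactory bulb neurons (8 genes, among them Cdhr1, Doc2g and Tbx21), with a summed CPM of 151 and 76.8, against 52.7 and 58.0 in old replicates 1 and 3, 27.3 in old replicate 4 and 29.8 to 33.1 in the other young mice. No bulb marker was at 0 in all libraries. Markers of dentate granule cells had a summed CPM of 330 to 365 in young and 286 to 329 in old mice, without overlap, and the sums were not tested. Their mean log2 CPM was instead higher by 0.04 in old mice (exact permutation test, two-sided p = 0.492). Those of cerebellar granule cells had a summed CPM of 658 to 881 in young and 449 to 779 in old mice. Young replicate 4 was high in markers of activated microglia, with a mean log2 CPM of 3.59. The other young mice were at 1.24 to 1.48 and the old mice at 3.25 to 3.80. Of the 10 genes, young replicate 4 was the lowest of all libraries for Igfbpl1 alone. The results are therefore given with and without the libraries that bear on them.

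The quasi-likelihood test of edgeR called 2 of the 10 genes lower in old brain and 0 higher, at a Benjamini-Hochberg adjusted p under 0.05. Over all 18492 genes tested, 4.89% were lower and 6.09% higher by this rule. The 2 were Nrep and Sox11, and these were also the genes whose old and young values did not overlap, with every old mouse below every young mouse (6.08% of all genes tested had such a pattern). Nrep alone also passed an absolute log2 fold change of 0.58, which 0.373% of the tested genes did in the lower direction. The median log2 fold change of the 9 tested genes was -0.02, beside 0.00 over all tested genes. A lower level in whole tissue can come from fewer cells of a type or from less RNA per cell, and these cannot be told apart here.

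**Figure D1:**
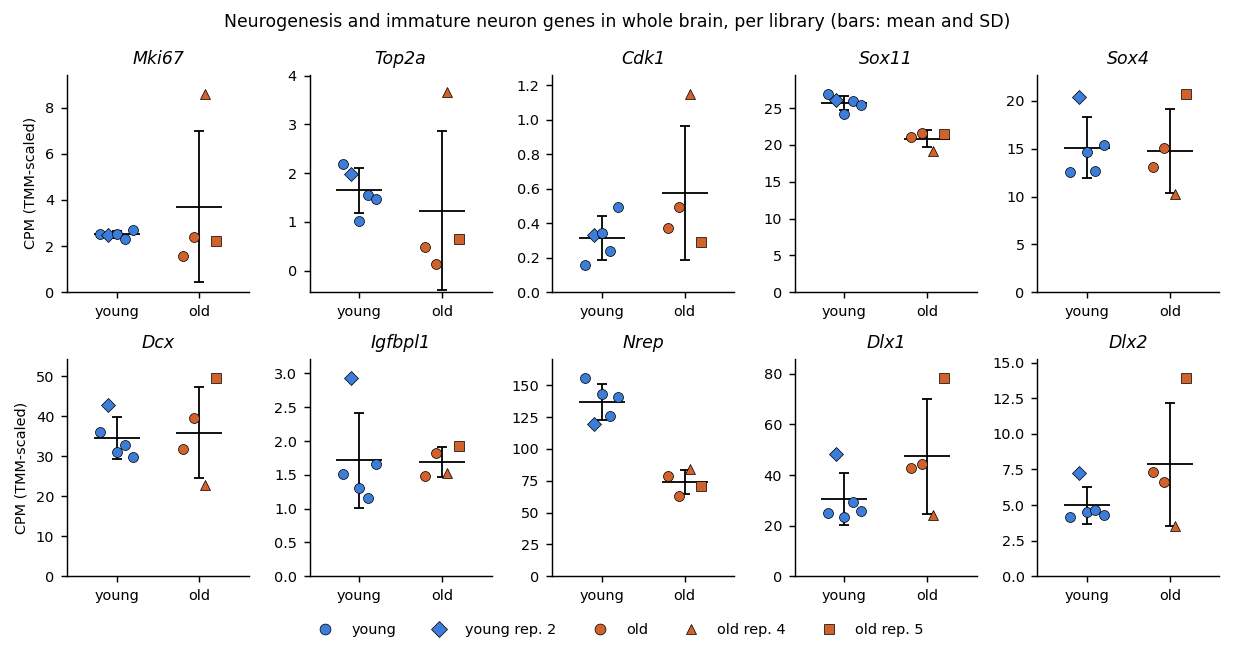
CPM (vertical axis, TMM-scaled) of each of the 10 genes in the 5 young and 4 old libraries, 1 point per mouse, with horizontal bars for the mean and vertical bars for the SD. Nrep and Sox11 are lower in all 4 old mice, old replicate 4 (triangle) is highest in Mki67, Top2a and Cdk1, and old replicate 5 and young replicate 2 (square and diamond) are high in Dlx1, Dlx2, Sox4 and Dcx.

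Compared per length, as the authors' TPM, the levels in young brain ran from Nrep at 144 ± 35.6 TPM (SD, n = 5) through Dlx1 at 14.6 ± 4.89, Sox4 at 8.29 ± 2.26, Sox11 at 8.10 ± 1.33, Dcx at 7.16 ± 1.58, Dlx2 at 4.57 ± 1.34 and Igfbpl1 at 1.38 ± 0.568 to Mki67 at 0.656 ± 0.131, Top2a at 0.472 ± 0.134 and Cdk1 at 0.237 ± 0.0971. The means of Sox4, Sox11 and Dcx lay within each other's SD and so had no order beyond their spread. The ranges of mean ± SD of Dlx1 and Sox4, of Dcx and Dlx2 and of Mki67 and Top2a overlapped as well, while Nrep stood well above the rest. In old brain Nrep (68.7 ± 12.3 TPM, SD, n = 4) and Dlx1 (20.6 ± 10.7) were again the most abundant, and Sox11, at 5.82 ± 0.625, came after Dcx and Dlx2, within their SD. The 3 genes of dividing cells were the least abundant, with 3 to 48 counts per gene and young library, so that single reads weigh in their values.

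The genes of dividing cells come first. Mki67 encodes a protein that coats mitotic chromosomes, Top2a the topoisomerase that untangles replicated DNA, and Cdk1 the kinase that drives entry into mitosis. They are turned on late in the cell cycle, and their promoters are known for CCAAT boxes, bound by NF-Y, and for the cell cycle genes homology region, whose core is TTTGAA. The promoters of these 3 are shown because the genes moved together in 1 library. They are RefSeq sequences on GRCm38.p6 from 250 bases before to 50 after the start, at chr7:135716330-135716629 (Mki67), chr11:99024140-99024439 (Top2a) and chr10:69352863-69353162 (Cdk1), all read 5′ to 3′ on the minus strand, the strand of the gene. Capitals mark CCAAT and TTTGAA on either strand, so the reverse complements ATTGG and TTCAAA are in capitals too.
Mki67: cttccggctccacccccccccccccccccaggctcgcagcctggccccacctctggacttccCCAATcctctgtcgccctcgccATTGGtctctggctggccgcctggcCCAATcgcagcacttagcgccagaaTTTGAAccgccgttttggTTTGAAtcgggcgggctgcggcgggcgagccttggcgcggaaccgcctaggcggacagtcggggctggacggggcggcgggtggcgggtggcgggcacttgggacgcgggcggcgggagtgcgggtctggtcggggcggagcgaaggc
Top2a: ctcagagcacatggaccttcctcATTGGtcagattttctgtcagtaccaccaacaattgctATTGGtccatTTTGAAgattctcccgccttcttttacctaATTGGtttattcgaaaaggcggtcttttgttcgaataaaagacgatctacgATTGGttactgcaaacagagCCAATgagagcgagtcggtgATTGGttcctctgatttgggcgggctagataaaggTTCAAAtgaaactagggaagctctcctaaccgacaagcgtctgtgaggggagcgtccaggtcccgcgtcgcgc
Cdk1: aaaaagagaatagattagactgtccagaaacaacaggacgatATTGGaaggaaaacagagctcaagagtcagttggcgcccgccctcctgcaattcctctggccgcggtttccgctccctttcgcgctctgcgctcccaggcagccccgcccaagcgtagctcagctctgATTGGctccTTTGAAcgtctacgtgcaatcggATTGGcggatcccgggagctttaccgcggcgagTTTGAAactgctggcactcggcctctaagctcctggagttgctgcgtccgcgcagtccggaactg
These windows held 3, 6 and 3 matches to CCAAT and 2 each to TTTGAA. Over 32851 promoter windows of the same length, 37.4% held CCAAT, 17.9% TTTGAA and 6.95% both, so that short motifs such as these are common by themselves. Of the 8 genes with a promoter entry, Sox11 also held both motifs (1 match each), Sox4 had 4 matches to CCAAT and none to TTTGAA, Dlx2 had 1 match to CCAAT, Dlx1 had neither, and each of the 2 windows of Dcx had 1 match to CCAAT and none to TTTGAA. Nrep and Igfbpl1 had no entry.

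Mki67 was at 2.50, 2.49, 2.54, 2.31 and 2.71 CPM in young replicates 1 to 5, and at 1.59, 2.39, 8.58 and 2.23 CPM in old replicates 1, 3, 4 and 5. The young mice were close together, and old replicate 4 was 3.16-fold above the highest other library. Over all mice the log2 fold change was 0.57 (SE 0.498, adjusted p = 0.53, edgeR), and without old replicate 4 it was -0.29 (SE 0.186, adjusted p = 0.375), so the sign turned with that mouse and neither value passed.

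Top2a was at 2.19, 1.99, 1.03, 1.54 and 1.48 CPM in the young mice and at 0.477, 0.141, 3.66 and 0.645 CPM in the old, from 9, 2, 67 and 11 counts. In 3 of 4 old mice it was below every young mouse, and in old replicate 4 it was above all of them. The log2 fold change over all mice was -0.38 (SE 0.720, adjusted p = 0.792, edgeR). Without old replicate 4 it fell by 1.92 on the log2 scale (SE 0.366, adjusted p = 0.00376), from 1.65 ± 0.456 CPM (SD, n = 5) in young to 0.421 ± 0.257 CPM (SD, n = 3) in old mice, and 4.17% of the genes tested in that fit were called lower. The call without old replicate 4 rests on these low counts of the other 3 old mice, and the exons of Top2a also overlap those of Gm23451 on the same strand.

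Cdk1 had 3 to 8 counts in the young libraries and 7, 7, 21 and 5 in the old, too few for the filter. Its CPM were 0.157, 0.331, 0.343, 0.241 and 0.493 in young and 0.371, 0.493, 1.15 and 0.293 in old mice, again with old replicate 4 at the top, 2.32-fold above the next library, and the groups overlapped (p = 0.159 for the difference of means, exact two-sided permutation test).

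Taken as a sum, Mki67, Top2a and Cdk1 gave 3.91 to 4.85 CPM in the young mice, 2.44, 3.03 and 3.16 CPM in old replicates 1, 3 and 5, and 13.4 CPM in old replicate 4. Old replicate 4 thus held the largest summed share of reads of these 3 genes, and the other old mice held smaller sums than any young mouse. Gene by gene the latter held for Top2a alone. Mki67 in old replicate 3 (2.39 CPM) was above young replicate 4 (2.31 CPM). Cdk1 in old replicates 1 and 3 (0.371 and 0.493 CPM) was above all young mice but replicate 5. The genes of bone marrow and red cell precursors, tissues that divide throughout life, were high in the same library, as given above, and their part in these values was not tested.

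**Figure D2:**
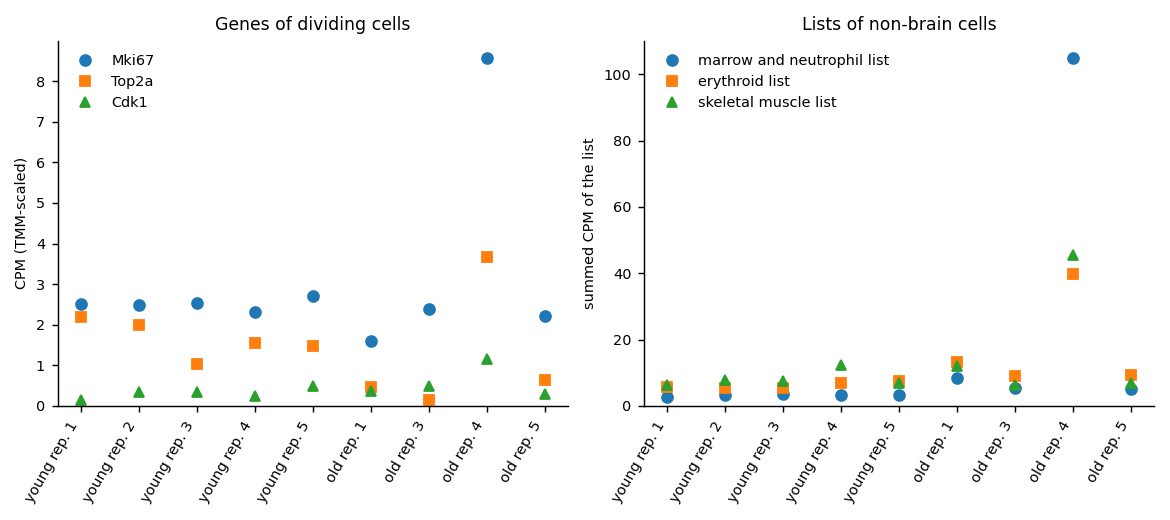
Left, CPM of Mki67, Top2a and Cdk1 in each of the 9 libraries, and right, the summed CPM of lists of marrow and neutrophil, erythroid and skeletal muscle genes in the same libraries. Old replicate 4 is the highest library in all 6 series of points, at 8.58 CPM of Mki67 and 105 CPM of the marrow and neutrophil list.

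The wider machinery of the cell cycle was looked at in 2 lists. Of 34 genes of mitosis, 25 could be tested, and 0 were called lower or higher in edgeR's test (median log2 fold change -0.09, and -0.26 without old replicate 4). DESeq2's Wald test called 1 and limma on the authors' normalized counts 2 of them. The most abundant were the condensin subunits Smc2 (log2 fold change 0.07, SE 0.0875) and Smc4 (0.11, SE 0.110) and the chromatin protein Hmgb2 (0.54, SE 0.199, adjusted p = 0.105), and Hmgb2 reached 10.3 CPM in old replicate 4 against at most 6.04 in the other libraries. Of the 25, 8 were highest in old replicate 4 (32.0%), beside 11.7% of all genes tested.

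Of 23 genes of DNA replication, 22 were tested, of which 0 were lower and 3 were higher in old brain (median log2 fold change 0.03). The 3 were 13.6% of those tested, beside 6.09% of all genes. Without old replicate 4 the median of the list was -0.08, with 1 gene lower and 1 higher, beside 4.17% and 5.12% of all genes. Of the 22, 10 were highest in old replicate 4 (45.5%), beside 11.7% of all genes tested. Pcna, the sliding clamp of DNA polymerase, was higher by 0.25 on the log2 scale (edgeR, SE 0.0511, adjusted p = 0.00468), at 39.6 ± 2.33 CPM in old (SD, n = 4) and 33.4 ± 1.08 in young mice (SD, n = 5), without overlap. Cdc45, which helps to load and drive the replicative helicase, was higher by 0.75 (SE 0.194, adjusted p = 0.0189) and Mcm3, a subunit of that helicase, by 0.56 (SE 0.169, adjusted p = 0.0402). Pcna was still called without old replicate 4 (adjusted p = 0.0191). The call of Cdc45 was lost without old replicate 1 or old replicate 4, at log2 fold changes of 0.66 and 0.69 (adjusted p = 0.0658 and 0.0567). That of Mcm3 was lost without any of young replicates 1, 3 or 4 or old replicates 3, 4 or 5, at log2 fold changes of 0.46 to 0.60 (adjusted p between 0.0584 and 0.129, the latter without old replicate 4). The exons of Cdc45 overlap those of Ufd1 on the other strand. Mcm7, another helicase subunit, Rrm1, a subunit of ribonucleotide reductase, and Dut, which keeps uracil out of DNA, had log2 fold changes of 0.19, 0.14 and -0.12 and did not pass. Pcna is also used in DNA repair.

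Among 18 genes of neural stem and progenitor cells, 16 were tested, of which 1 was lower and 1 was higher in old brain. That is 6.25% each way, near the 4.89% lower and 6.09% higher of all genes tested. Vim, an intermediate filament of radial glia that astrocytes and vessels also carry, was higher in old brain, at 94.2 ± 10.2 CPM (SD, n = 4) against 48.9 ± 3.80 CPM (SD, n = 5), or 0.95 on the log2 scale (SE 0.0721, adjusted p = 9.2e-06, edgeR). Among 6 markers of endothelium, edgeR called 3 higher and 0 lower, and the mean log2 CPM of the 6 was higher in the old mice by 0.20 (p = 0.00794, exact two-sided permutation test, 0.0278 adjusted over 14 marker lists), with a summed CPM of 218 to 235 in young and 246 to 287 in old mice. The mean log2 CPM of 7 astrocyte markers was higher by 0.02 in old mice (p = 0.548, exact two-sided permutation test), and 0 of them were called. The part of either cell type in the rise of Vim was not tested. Prom1, a membrane protein of stem cells and ependyma, was lower, with a log2 fold change of -0.27 (SE 0.0827, adjusted p = 0.0404), a call that was lost when any of young replicates 1, 2 or 3 or old replicates 1, 3 or 5 was left out, with adjusted p between 0.0516 and 0.11. Its exons overlap Gm16401 on the other strand. Of 6 ependymal markers, 1 was lower, 0 were higher and 5 had a negative log2 fold change, and their mean log2 CPM in old minus young mice was -0.32 (p = 0.0238, exact two-sided permutation test, 0.0476 adjusted over 14 marker lists), with a summed CPM of 24.6 to 33.3 in young and 19.2 to 25.1 in old mice. Their part in the value of Prom1 was not tested. The stem cell transcription factors Sox2 (log2 fold change -0.06, SE 0.0810) and Sox9 (-0.13, SE 0.0545) and the receptor Notch1 (-0.04, SE 0.0486) did not pass. The median of the 16 was -0.11.

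The SoxC factors come next, which turn on neuronal genes in newborn neurons. Sox11 was at 26.9, 26.1, 24.2, 25.9 and 25.4 CPM in young replicates 1 to 5 and at 21.1, 21.7, 19.2 and 21.4 CPM in old replicates 1, 3, 4 and 5. The spread within a group was small, and all old mice were below all young mice. Sox11 fell by 0.31 on the log2 scale (SE 0.0581, adjusted p = 0.00275, edgeR), which is 1.24-fold lower. With old replicate 4 left out it fell by 0.27 (SE 0.061, adjusted p = 0.011).

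Sox4 showed no such separation. Its CPM were 12.5, 20.4, 14.7, 12.7 and 15.4 in young and 13.0, 15.1, 10.2 and 20.7 in old mice, highest in old replicate 5 and young replicate 2 and lowest in old replicate 4. The log2 fold change was -0.04 (SE 0.227, adjusted p = 0.941, edgeR; 95% interval -0.48 to 0.41, a normal interval from the SE). The exons of Sox4 overlap those of Gm26735 on the other strand, and strand-specific counting is not stated for these libraries.

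Dcx, like Sox4, was highest in old replicate 5 and young replicate 2 and lowest in old replicate 4, while among the other young mice the order of Dcx and Sox4 was not the same. It was at 36.0, 43.0, 31.1, 32.7 and 29.8 CPM in young and 31.9, 39.6, 22.8 and 49.5 CPM in old mice, so the old group held both its highest and its lowest library. The log2 fold change was 0.05 (SE 0.227, adjusted p = 0.922, edgeR), with a 95% interval of -0.40 to 0.50. By the root mean square difference of centred log2 CPM over the 9 libraries, the genes most like Dcx were Kcnb2, a voltage-gated potassium channel (0.103), Rasl11b, a small GTPase of the Ras family (0.109), and Gm42608 (0.13), and Sox4 ranked 32 of all genes tested (0.17), while Dcx ranked 16 for Sox4. This likeness is a description over 9 libraries that also differ in the level of the bulb markers. For Top2a, the same measure named Hoxd4 (0.591), A830005F24Rik (0.599) and Gm9945 (0.649), all under 1 CPM in both ages.

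Igfbpl1, an insulin-like growth factor binding protein of neuroblasts, had 19 to 53 counts per library. It was at 1.51, 2.93, 1.30, 1.16 and 1.66 CPM in young and 1.48, 1.83, 1.53 and 1.93 CPM in old mice. Young replicate 2 was 1.51-fold above the highest other library, and the groups overlapped (log2 fold change -0.02, SE 0.251, adjusted p = 0.968, edgeR). Without young replicate 2 the log2 fold change was 0.27 (SE 0.206, adjusted p = 0.461).

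Nrep, a small protein of developing and regenerating neurons, gave the clearest difference. The CPM of Nrep were 155, 120, 143, 126 and 141 in young and 78.6, 62.9, 83.9 and 70.9 in old mice. The highest old value lay well below the lowest young value. Nrep fell by 0.88 on the log2 scale (SE 0.0993, adjusted p = 0.000808, edgeR), which is 1.84-fold lower, from 137 ± 14.1 CPM (SD, n = 5) to 74.1 ± 9.15 CPM (SD, n = 4). Leaving out old replicate 4 gave a fall of 0.95 (SE 0.0988, adjusted p = 0.000721) and leaving out old replicate 5 a fall of 0.86 (SE 0.114, adjusted p = 0.00379). Nrep was called in every alternative processing that was run. By the likeness measure used above it ranked 17477 of all genes tested for Dcx. Which cells its transcripts came from was not tested.

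A wider list of 32 genes of immature and growing neurons was tested in full. Of these, 12 were lower in old brain and 0 were higher (37.5% lower, beside 4.89% of all genes), and 28 of the 32 had a negative log2 fold change, with a median of -0.13 beside 0.00 over all genes tested. The 5 with the smallest p were Gap43, a growth cone protein (log2 fold change -0.28, SE 0.0341, adjusted p = 7.1e-05, edgeR), Dpysl3, a collapsin response mediator (-0.40, SE 0.0593, adjusted p = 0.000432), Stmn2, a stathmin that loosens microtubules (-0.27, SE 0.0447, adjusted p = 0.000956), Tubb3, the neuronal beta-tubulin (-0.22, SE 0.0419, adjusted p = 0.0025), and Tmsb10, an actin-binding thymosin (-0.21, SE 0.040, adjusted p = 0.00288). In each of these 5, which were picked by their small p, all old mice were below all young mice. Of the 32 genes, 9 had that pattern, beside 6.08% of all genes tested. Gap43, for instance, was at 180 ± 2.15 CPM in old (SD, n = 4) and 218 ± 6.08 CPM in young mice (SD, n = 5).

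None of the 12 reached an absolute log2 fold change of 0.58. The most abundant genes that did not pass were Basp1, another growth cone protein (log2 fold change -0.11, SE 0.0425), Elavl3, a neuronal RNA-binding protein (-0.04, SE 0.0370), and Ncam1, a neural adhesion molecule (-0.07, SE 0.0379). Many of the 32 are also made by mature neurons: of 8 markers of neurons in general, 1 was lower (Map2, log2 fold change -0.14) with a median of -0.07, and their mean log2 CPM was lower in old mice by 0.10 (p = 0.00794 in an exact two-sided permutation test, the smallest that 126 splits can give, and 0.0278 adjusted over 14 marker lists). The part of mature neurons in the fall of the list, of Sox11 or of Nrep was not tested. Without old replicate 4, 9 were lower and 0 higher. On log2(TPM + 1), where the median of all genes moved by -0.14, limma called 2 of them.

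**Figure D3:**
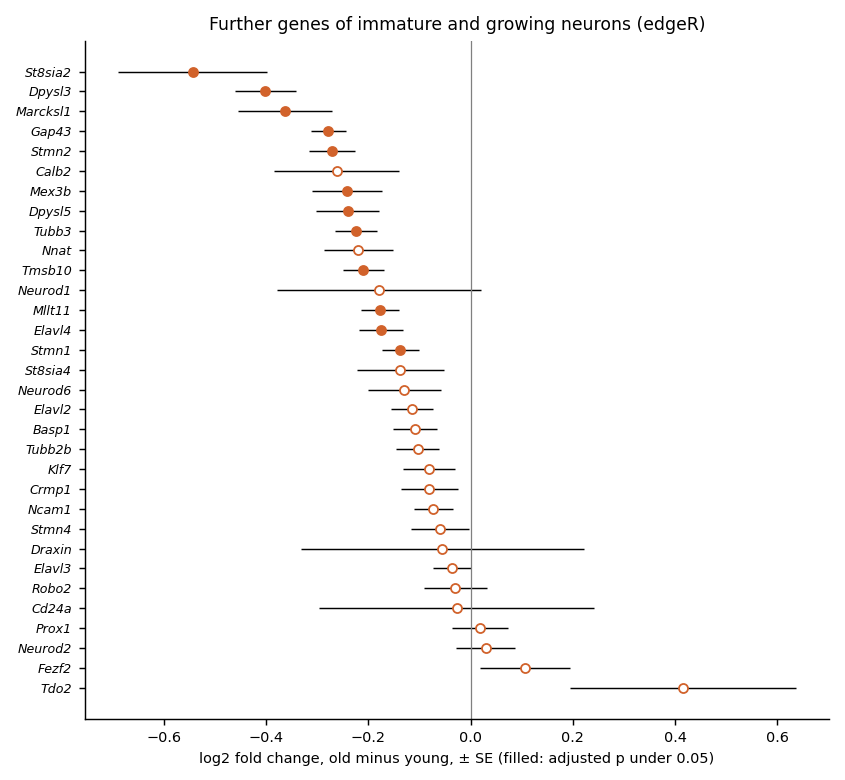
Log2 fold change of old minus young mice (horizontal axis, points) with SE (bars) for the 32 further genes of immature and growing neurons, filled where the adjusted p is under 0.05. The 12 filled points all lie below 0, and St8sia2 and Dpysl3 lie lowest.

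Precursors of oligodendrocytes also divide in the adult brain. Of 10 markers of these and of differentiating oligodendrocytes, 4 were lower and 1 was higher in old brain, beside 4.89% and 6.09% of all genes tested, and without old replicate 5 2 were lower and 1 was higher. Of the 10, 6 had a negative and 4 a positive log2 fold change. The mean log2 CPM of the 10 was lower in old mice by 0.16 (p = 0.0159, exact two-sided permutation test, 0.037 adjusted over 14 marker lists). Their summed CPM was 531 to 600 in young and 533 to 624 in old mice. Gpr17, a receptor of cells committed to differentiate, fell by 0.83 on the log2 scale, whereas Pdgfra, the growth factor receptor of the precursors, differed by 0.05 on the log2 scale (edgeR, adjusted p = 0.605).

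Dlx1 and Dlx2 are neighbours on chromosome 2 and specify inhibitory neurons in the embryonic forebrain and for the olfactory bulb. Dlx1 was at 25.1, 48.3, 23.5, 29.4 and 25.9 CPM in young and 42.6, 44.5, 24.0 and 78.2 CPM in old mice. Dlx2 was at 4.17, 7.23, 4.53, 4.63 and 4.32 CPM in young and 7.32, 6.62, 3.55 and 13.9 CPM in old mice. Both were highest in old replicate 5, and young replicate 2 stood out among the young mice. Old replicate 4 was at the level of the other young mice for Dlx1 and below them for Dlx2.

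The log2 fold change was 0.63 for Dlx1 (SE 0.373, adjusted p = 0.351, edgeR; 95% interval -0.10 to 1.36) and 0.65 for Dlx2 (SE 0.381, adjusted p = 0.34; -0.09 to 1.40). Without old replicate 5 these were 0.27 (SE 0.323) and 0.22 (SE 0.245). Without old replicate 4 they were 0.85 (SE 0.326, adjusted p = 0.18) and 0.90 (SE 0.279, adjusted p = 0.0857), and without young replicate 2 they were 0.86 (SE 0.362, adjusted p = 0.207) and 0.83 (SE 0.395, adjusted p = 0.25). The ratio of Dlx1 to Dlx2 in CPM stayed between 5.18 and 6.77 in all 9 libraries, with a median of 6.01, and of all genes tested the pattern most like that of Dlx1 was that of Dlx2, and the reverse (root mean square difference 0.122). The exons of Dlx1 overlap those of the antisense gene Dlx1as.

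The levels of several of these genes moved with the markers of olfactory bulb neurons, so the mean log2 CPM of the 8 markers was entered as a covariate beside age. The coefficient of the markers was called above 0 for 4 of the 10 genes and for 0.752% of all genes tested. The genes and markers were chosen with earlier results of these libraries known. The coefficients therefore describe the 9 libraries and are no independent test. A rise of 1 in the mean log2 CPM of the bulb markers went with a rise in log2 CPM of 0.63 for Dlx1 (SE 0.0415, adjusted p = 1.9e-07, edgeR), 0.66 for Dlx2 (SE 0.0729, adjusted p = 5.1e-05), 0.40 for Sox4 (SE 0.0502, adjusted p = 0.000239) and 0.36 for Dcx (SE 0.0596, adjusted p = 0.0135). For Sox11 the coefficient was 0.04 (SE 0.0382, adjusted p = 0.859) and for Nrep -0.12 (SE 0.0499, adjusted p = 0.52). Without old replicate 5, where 0.288% of all genes were called, the coefficients of Dlx1, Dlx2 and Sox4 were still called (adjusted p = 9.6e-05, 0.0247 and 0.0272) and that of Dcx, at 0.32, was not (0.238).

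**Figure D4:**
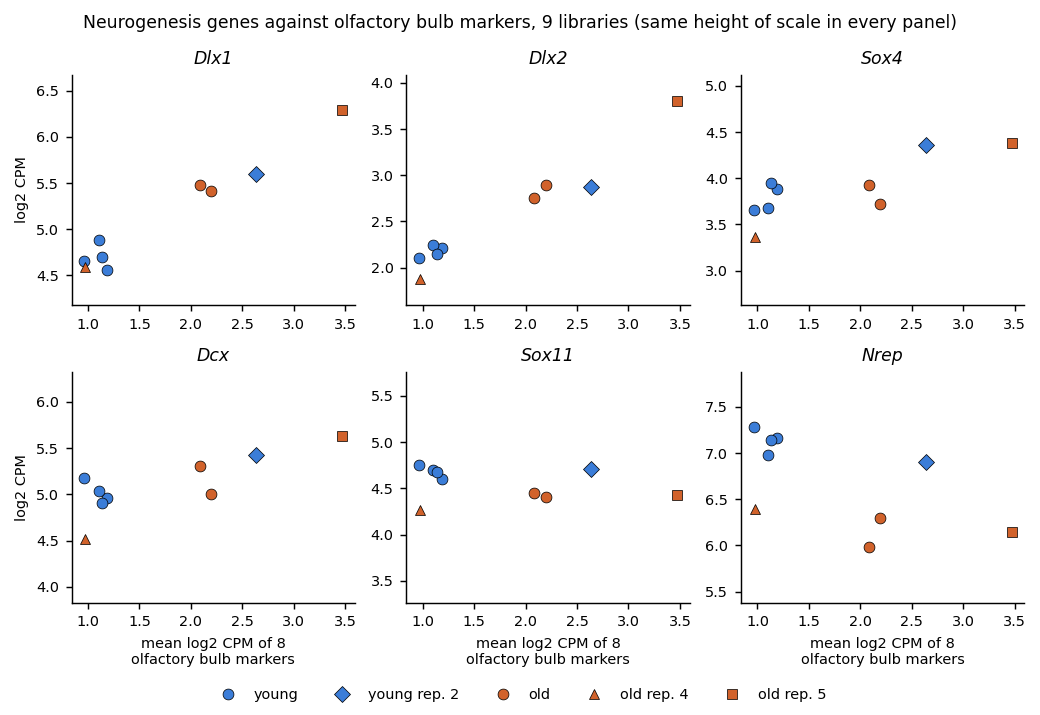
Log2 CPM of 6 genes (vertical axes, each spanning the same range of log2 units) against the mean log2 CPM of 8 olfactory bulb markers (horizontal axis), 1 point per library. Dlx1, Dlx2, Sox4 and Dcx climb from left to right, while Sox11 and Nrep separate young from old mice at any level of the markers.

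With the bulb markers in the model, 3 of the 10 genes were lower in old brain and 0 were higher, beside 3.92% and 5.66% of all genes. Sox11 (log2 fold change -0.34, SE 0.0651, adjusted p = 0.00305, edgeR) and Nrep (-0.79, SE 0.0854, adjusted p = 0.000312) were joined by Sox4 at -0.36 (SE 0.0885, adjusted p = 0.0151). Dcx moved to -0.26 (SE 0.105, adjusted p = 0.155), and Dlx1 and Dlx2 to 0.07 (SE 0.0744) and 0.04 (SE 0.133). With old replicate 4 also left out, Sox4 (-0.36, adjusted p = 0.117) and Sox11 (-0.28, adjusted p = 0.0955) were no longer called and Nrep and Top2a were (adjusted p = 0.00895 and 0.0165). The markers themselves did not pass a test between the ages (exact permutation test, two-sided p = 0.198; adjusted over 14 lists, 0.273).

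**Figure D5:**
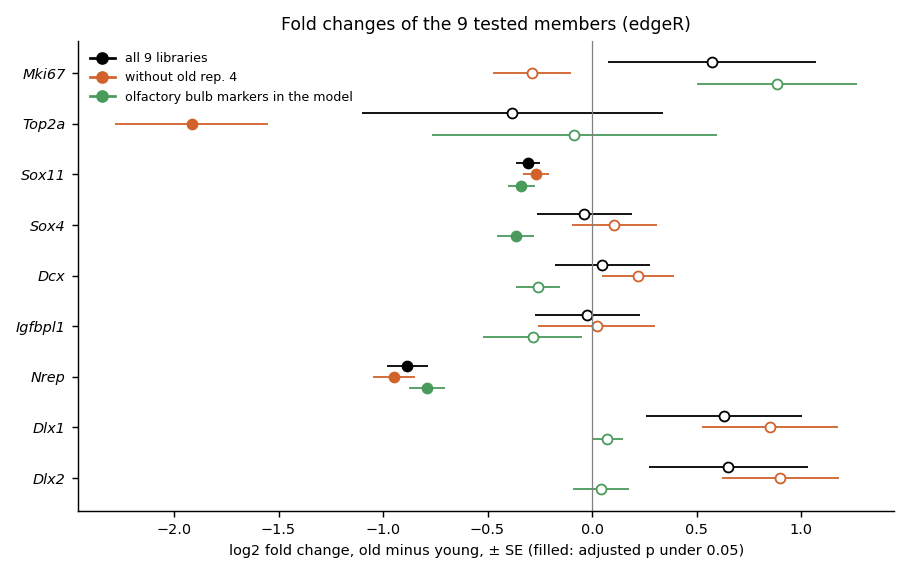
Log2 fold change of old minus young mice (horizontal axis) with SE for the 9 tested genes over all 9 libraries, without old replicate 4, and with the olfactory bulb markers in the model, filled where the adjusted p is under 0.05. Nrep and Sox11 are filled in all 3, Top2a without old replicate 4 (-1.92) and Sox4 with the bulb markers (-0.36).

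A list of 14 other genes of the Dlx lineage was looked at in the same way. In the comparison of ages 0 of them were called lower or higher in edgeR's test, 12 had a positive log2 fold change, and 12 were highest in old replicate 5, beside 11.7% of all genes tested. The bulb marker coefficient was called above 0 for 10 of the 14, beside 0.752% of all genes tested. Sp8, a transcription factor of olfactory bulb interneurons that was picked after its values were seen, was at 1.51, 12.1, 1.71, 2.17 and 3.08 CPM in young and 8.01, 9.79, 1.86 and 27.9 CPM in old mice, highest in old replicate 5 like Dlx2, with young replicate 2 and old replicates 1 and 3 next. Meis2, a homeodomain factor of striatal and bulb neurons (log2 fold change 0.38, SE 0.210), and the GABA-synthesising enzymes Gad1 (0.32, SE 0.142) and Gad2 (0.10, SE 0.0561) did not pass.

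Relatives of the 10 genes within their families came last. Of 12 such relatives, among them cyclin-dependent kinases and other Dlx genes, 10 were tested and 0 were called in edgeR's test. Dclk1 and Dclk2, kinases with a doublecortin domain that mature neurons express, had log2 fold changes of -0.05 (SE 0.0829) and 0.12 (SE 0.0825). Without old replicate 4, Dclk2 was higher by 0.21 (adjusted p = 0.0204), when 5.12% of all genes were called higher. Top2b, the topoisomerase of cells that no longer divide, had one of -0.03 (SE 0.0435), at 110 ± 7.42 CPM in old (SD, n = 4) and 112 ± 2.67 CPM in young mice (SD, n = 5).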

How the data were processed

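RNA-seq libraries of 5 young and 4 old brains were grouped by the labels. Per the methods, the authors used Trimmomatic for trimming, STAR for alignment to GRCm38 and featureCounts to count reads that mapped uniquely to exons. Raw counts per gene ID were deposited. The authors' normalized counts, a signal, divide these by 1 size factor per library and hold 17994 genes. The authors' TPM rest on gene lengths that are not stated. A column that matched no sample (1 per table) was unused.

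Here, genes were kept with filterByExpr (minimum count 10, total 15), scaled with TMM and tested with edgeR's quasi-likelihood test (edgeR 4.0.16, limma 3.58.1, DESeq2 1.42.0, R 4.3.3), adjusted by Benjamini-Hochberg over 18492 genes. Log2 CPM used a prior count of 2. Libraries are separate mice. The fit was checked on simulated counts. Symbols, positions and exon overlaps came from GENCODE M21, which held a symbol for 48970 of 49315 IDs, and promoters from RefSeq.

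The 10 genes, the lists and the tests were chosen with earlier results of these data known. Named are the 10, in each pathway list up to 5 genes of smallest p that passed and up to 3 of highest mean level that did not, and the 3 genes most like Dcx and Top2a. Other names were picked after their values were seen. Alternatives were other scalings, tools, filters, units, a replicate block, the bulb marker covariate and each mouse left out. Fits without old replicates 4 and 5, the covariate without either, edgeR without robust shrinkage and the marrow, erythroid and muscle lists were added after seeing the data.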

Additional observations from a re-analysis of the deposited data

Results flagged for a closer look

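In 8 of 54 combinations of a gene or list and an age group, 1 mouse lay farther from the rest of its group than Dixon's 95% value allows. Chance gives about 1 in 20, here 2.7, but the combinations share the same mice and are not independent. The ratio is the gap to the nearest mouse over the whole range of the group. Young replicate 2 was set apart for Dlx2 (ratio 0.813, log2 CPM 2.88 against 2.10 to 2.25 in the other young mice), for the olfactory bulb markers (0.866, mean log2 CPM 2.64 against 0.97 to 1.19), for the Dlx lineage list (0.814, 5.40 against 4.79 to 4.90) and for the relatives of the 10 genes (0.782, 4.93 against 4.72 to 4.76). Young replicate 4 was set apart for the markers of microglia (0.88, 4.41 against 3.90 to 3.96), of activated microglia (0.896, 3.59 against 1.24 to 1.48) and, downwards, for the stem and progenitor list (0.724, 4.02 against 4.17 to 4.22). In old mice the markers of microglia and of activated microglia were at 4.43 to 4.52 and 3.25 to 3.80. Old replicate 4 was set apart for the DNA replication list (0.851, 2.54 against 2.19 to 2.24 in the other old mice).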

How the results depend on the processing

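Of 207 repeats of the log2 fold changes of the 9 tested genes under other settings, 181 kept direction and call, 3 lost the call (Sox11), 5 gained one (Top2a and Sox4) and 18 changed sign (Dcx, Sox4, Igfbpl1 and Mki67, none called). Where not stated, the cause was not tested. The number of the 10 genes lower in old brain was 2 to 3 with each mouse left out (3 without old replicate 4) and 1 on log2(TPM + 1), log2(TPM + 0.1) or with a fold change threshold. With each mouse left out, 622 to 852 genes were lower and 878 to 1182 higher over the whole table. Lower and higher genes numbered 287 and 307 on log2(TPM + 1), 296 and 304 on log2(TPM + 0.1), 69 and 394 with the fold change threshold, 332 and 541 at an adjusted p under 0.01, 404 and 565 without old replicates 4 and 5, and 171 and 330 with the bulb covariate and without old replicate 4.

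Calls in the stem and progenitor list were 1 with the replicate block, with the bulb covariate (also without old replicate 4 or 5) and without old replicates 4 and 5, and 1 to 3 with each mouse left out. In the DNA replication list they were 1 with the replicate block, 0 on both TPM scales, without old replicates 4 and 5 or with the covariate and without old replicate 4, and 2 to 3 with each mouse left out. In the mitosis list they were 1 with DESeq2, 2 with no filter, without robust shrinkage, on the authors' normalized counts or with the replicate block, and 0 to 1 with each mouse left out. In the immature neuron list they were 2 on both TPM scales, 7 with the covariate and without old replicate 4, 6 without old replicates 4 and 5, and 8 to 12 with each mouse left out. In the Dlx lineage list they were 1 on both TPM scales and 0 to 1 with each mouse left out, and among relatives 0 to 1.

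On log2(TPM + 1) and log2(TPM + 0.1), where the median of all genes moved by -0.14 and -0.16, the log2 fold changes turned to -0.13 and -0.15 (Dcx), -0.027 and -0.031 (Rrm1), -0.088 and -0.10 (Smc2), -0.051 and -0.058 (Smc4), -0.073 and -0.073 (Gad2) and -0.046 and -0.047 (Dclk2). With the bulb covariate they were -0.26 (Dcx) and -0.0029 (Dclk2), without old replicate 5 too -0.27 (Dcx), and without old replicate 4 too -0.12 (Dcx), -0.33 (Mki67) and -0.034 (Rrm1). Without old replicates 4 and 5 they were -0.35 (Mki67) and -0.014 (Smc4), and on the authors' normalized counts 0.051 (Igfbpl1). With each mouse left out they ran from -0.15 to 0.22 (Dcx), -0.25 to 0.11 (Sox4), -0.15 to 0.27 (Igfbpl1), -0.29 to 0.84 (Mki67), -0.10 to 0.0035 (Dclk1) and -0.067 to 0.0095 (Top2b).

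Replicate numbers are shared between the ages. Deviations of same-numbered mice correlated at 0.17, -0.12, 0.09 and -0.02, and only old replicate 1 was most like the young mouse of its number. These values give little sign of pairing by number but cannot exclude it. With the replicate block Sox4 was at 0.066 and Igfbpl1 at 0.26, 2 of the 10 genes were lower and 0 higher, and 789 genes were lower and 1039 higher. Counts under 50 for Mki67 and Igfbpl1 in most libraries, and under 12 for Top2a in 3 old mice, limit what can be seen for these genes.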
